A study of Rattus norvegicus with 20 samples.

Results

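Of a series of 20 rat lung RNA libraries, 10 were compared here: 5 from rats after caecal ligation and puncture (CLP) and 5 from sham-operated rats (Sham), none given nerve stimulation. The libraries were chosen by their labelled treatment, and measured values played no part in the choice. CLP ties off and pierces the caecum so that gut bacteria leak into the abdomen, and the labels call it a model of acute respiratory distress syndrome. The Sham rats had the abdomen opened and the caecum handled, with neither ligature nor puncture. The other 10 libraries, named Sham+VNS and CLP+VNS, came from rats that had the same operations with stimulation of the vagus nerve. They were fitted in the same model as the 10 compared, so they helped set which genes were tested, the spread and the p-values. Beyond that they are used below only as a separate set. The labels give the tissue as lung, and they give no strain, sex, age, time after surgery, day of collection or sequencing batch. CLP libraries carry the numbers 1, 3, 4, 5 and 6 and Sham libraries 1 to 5, and values listed by library follow that order.

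The gas-exchange surface of the lung is an epithelium and a capillary network that share a thin basement membrane, a sheet of laminin, type IV collagen, nidogen and perlecan made by epithelial, endothelial and mesenchymal cells. During abdominal sepsis, leukocytes gather in the capillaries, the endothelium leaks and the liver and lung make defence proteins. The cytokine and acute phase side of that response is well known. The account here therefore follows other gene groups: matrix, vessel guidance, growth factor receptors, second messengers, transport, metabolism and RNA turnover. In whole tissue, fewer cells of a type and less RNA per cell cannot be told apart.

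Each Sham library held between 13785062 and 14186121 counts in all, and each CLP library between 13806220 and 14327215. Levels are CPM (counts per 1000000 counts of a library) on library sizes scaled by TMM, a method that sets the bulk of genes equal between libraries, and are given as mean ± SD over 5 libraries. Of 19060 genes in the table, 14794 had enough counts to be tested with edgeR's quasi-likelihood model, and a gene was called at a Benjamini-Hochberg adjusted p below 0.05. Changes are fitted log2 values of CLP against Sham ± SE, so that 1 is a 2-fold rise and -1 a 2-fold fall. The labelled tissue was checked on 20 lung marker genes, all of which were measured: the surfactant protein gene Sftpc stood at 13209 ± 2094 to 13676 ± 298 CPM, and the summed level of the list was 29352 to 48124 CPM in Sham and 42735 to 47439 CPM in CLP. In a principal component analysis of 1000 genes of high variance, axis 1 (53.8% of the variance) parted the groups, with Sham at -33.2 to -19.6 and CLP at 25.1 to 31.3. The labels do not state that each library came from its own animal. The p-values therefore measure the spread between libraries within the fitted groups, stimulated ones included, which may be technical.

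Of the 14794 tested genes, 2926 were called higher in CLP (19.8%) and 3029 lower (20.5%), 5955 or 40.3% in all. The size of these changes was mostly small, since 3637 of the called genes moved by less than 1.5-fold, while 525 rose and 646 fell by at least 2-fold. In 3862 genes (26.1%) the 5 CLP and 5 Sham libraries did not overlap, 1977 of them higher and 1885 lower in CLP, and 3762 of these were called. The balance between rises and falls rested on the scaling: with total counts alone in place of TMM, 2341 genes were called higher and 3763 lower. With TMM 49.1% of the calls were rises, with total counts 38.4%. That change of scale moved the median of all genes from -0.01 to -0.06, and the counts that total count scaling gave are printed beside several lists below. Calls within a list are to be read against the shares among all tested genes, 19.8% higher and 20.5% lower.

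**Figure D1:**
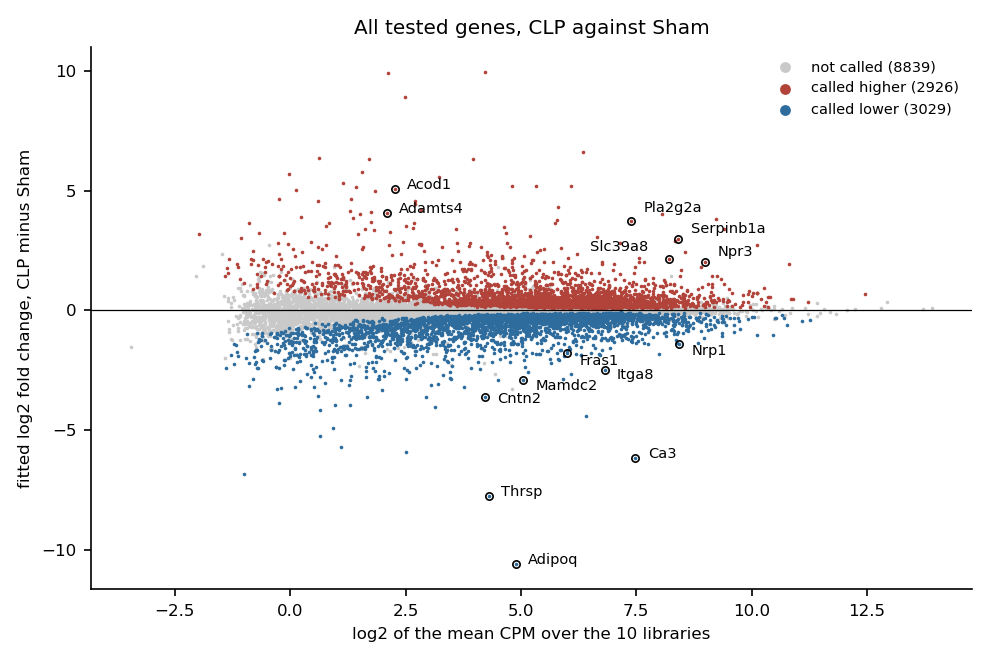
Fitted log2 fold change of CLP against Sham (vertical) against the log2 of the mean CPM over the 10 libraries (horizontal) for the 14794 tested genes, one point per gene, coloured by call. With TMM scaling 2926 genes were called higher and 3029 lower, and the calls of the 3 genes at the bottom, Adipoq, Thrsp and Ca3, were lost without Sham replicate 1.

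The Sham libraries were not all alike. Sham replicate 3 lay nearest to CLP on the first principal component, at -19.6, where the other Sham libraries lay between -33.2 and -28.3. With it left out, 558 genes were called at least 2-fold higher and 745 at least 2-fold lower, against 525 and 646 with all libraries. Sham replicate 1 lay at 37.1 on the second principal component (12.9% of variance), where the other Sham libraries lay between -13.7 and -3.45. It carried the RNA of fat: Adipoq, the adipocyte hormone adiponectin, was at 285, 9.72, 0, 0.141 and 0.0691 CPM in Sham and 0, 0.0706, 0, 0.0733 and 0 CPM in CLP. The summed level of the 19 adipose genes in the table was 2908 CPM in Sham replicate 1, while Sham replicates 2 to 5 held 293 to 417 CPM and CLP libraries 866 to 1206 CPM, and Npr3, a lung gene on that list, made most of the CLP value. Of 14 adipose genes tested, 7 were called lower in CLP, and without Sham replicate 1 none was (the adipose median went from -2.22 to -0.03). Heart muscle genes followed the same library, with a summed level of 245 CPM there, 43.3 to 97.1 CPM in Sham replicates 2 to 5 and 33.5 to 49.96 CPM in CLP. Genes of nerve and glia summed to 550 CPM there, 140 to 200 CPM in Sham replicates 2 to 5 and 99.5 to 118 CPM in CLP, and mesothelial genes to 2361 CPM there, 979 to 1618 CPM in Sham replicates 2 to 5 and 1393 to 1861 CPM in CLP.

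Most falls held when Sham replicate 1 was left out. Of the 3029 falls, 2645 were still called, 384 were not, and 168 further genes were called lower only then. Of the 646 falls of at least 2-fold, 593 were still called and 538 were still at least 2-fold. The 53 that were not called were led by Adipoq, Thrsp, a regulator of fat synthesis in adipocytes, Ca3, the carbonic anhydrase of fat and muscle, and Sncg, gamma-synuclein. Ca3 read 1685, 52.6, 4.79, 10.8 and 6.22 CPM in Sham and 8.43, 3.88, 5.87, 3.08 and 3.46 CPM in CLP: a single Sham library held nearly all of it, and its log2 change went from -6.15 to -1.91 (adjusted p = 0.232). Without Sham replicate 1 the change of Adipoq went from -10.61 to -6.05, that of Thrsp from -7.75 to -3.39 and that of Sncg from -4.04 to -1.23. The call of S100b, a glial and fat protein, was lost in the same way (-3.11 to -0.62). Each fall named below was called with and without Sham replicate 1 unless the text says otherwise. Rises were touched less: 2593 of 2926 were still called, and 504 of the 525 that were at least 2-fold.

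**Figure D2:**
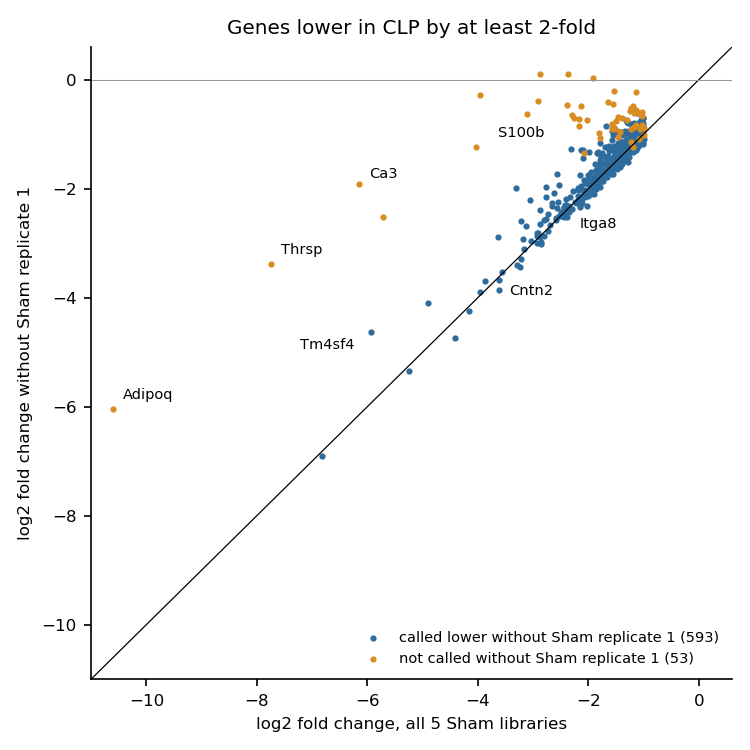
Log2 fold change of the 646 genes that fell by at least 2-fold, computed with all 5 Sham libraries (horizontal) and without Sham replicate 1 (vertical), one point per gene, with the line of equal values. The 593 genes still called lie near the line for the most part, and the 53 that lost their call lie above it, Adipoq, Thrsp and Ca3 farthest out.

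Promoter letters were counted for the genes with the largest changes, as a description with no test. RefSeq's promoter table for assembly GRCr8 (250 bases before to 50 after a gene's start; the counts were made on another assembly, mRatBN7.2) held 11987 of the tested genes. Each motif was searched on both strands, and motifs were counted separately, so that the same bases may count for more than one. The TATA box letters TATAAA, at any place and on either strand, stood in 7.56% of all 11987 promoters. They stood in 17.9% of the 419 promoters of genes that rose at least 2-fold and in 8.64% of the 486 of genes that fell at least 2-fold. The kappaB letters GGANTTTCC stood in 1.38%, 3.34% and 0.206% of the same sets, the C/EBP letters TTGCNNAA in 9.04%, 15.3% and 9.26%, and the AP-1 letters TGANTCA in 5.2%, 9.07% and 6.17%. The CRE, TGACGTCA, stood in 2.93%, 2.39% and 0.206%, that is in 1 of the 486 promoters of genes that fell. The CCAAT box, CCAAT, stood in 37.7%, 41.5% and 34%. These shares describe letters, and no factor's binding was measured.

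Promoters of 4 genes described below are shown, 3 that rose and hold the letters TATAAA and 1 that fell and holds none of the 12 motifs searched. Whether any of these matches acts as a TATA box was not tested. Capitals mark TATAAA on either strand and, in Acod1, also the kappaB letters.
Acod1 (chr15:86286289-86286588, plus strand): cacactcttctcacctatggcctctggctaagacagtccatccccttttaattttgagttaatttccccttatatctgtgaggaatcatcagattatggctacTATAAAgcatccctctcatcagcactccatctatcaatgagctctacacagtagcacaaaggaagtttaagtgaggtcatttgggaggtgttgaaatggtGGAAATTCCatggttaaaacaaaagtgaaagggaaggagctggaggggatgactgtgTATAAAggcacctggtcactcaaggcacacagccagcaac
Serpinb1a (chr17:31799196-31799495, plus strand): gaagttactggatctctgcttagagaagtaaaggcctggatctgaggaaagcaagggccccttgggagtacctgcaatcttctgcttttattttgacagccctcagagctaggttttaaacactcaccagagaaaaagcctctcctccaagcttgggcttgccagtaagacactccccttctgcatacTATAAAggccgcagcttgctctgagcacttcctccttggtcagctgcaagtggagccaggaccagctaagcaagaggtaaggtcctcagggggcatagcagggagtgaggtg
Slc39a8 (chr2:226929941-226930240, plus strand): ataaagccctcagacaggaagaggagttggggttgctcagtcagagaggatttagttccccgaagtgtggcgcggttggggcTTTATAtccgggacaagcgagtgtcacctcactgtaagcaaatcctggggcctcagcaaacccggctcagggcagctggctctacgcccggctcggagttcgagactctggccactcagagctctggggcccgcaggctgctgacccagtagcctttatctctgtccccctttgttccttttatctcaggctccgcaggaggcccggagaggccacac
Itga8 (chr17:80410584-80410883, minus strand): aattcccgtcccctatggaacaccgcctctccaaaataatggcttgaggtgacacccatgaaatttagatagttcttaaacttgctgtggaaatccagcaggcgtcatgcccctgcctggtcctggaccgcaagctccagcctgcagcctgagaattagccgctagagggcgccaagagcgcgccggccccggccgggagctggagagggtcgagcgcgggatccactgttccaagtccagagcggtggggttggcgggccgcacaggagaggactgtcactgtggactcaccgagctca
Counted from the start, the kappaB match of Acod1 began at base -47 and its TATA matches at bases -147 and 11. The Serpinb1a match began at base -62 and the Slc39a8 match, on the opposite strand, at base -168. The other 6 motifs searched were the E-box CACGTG, the D-box TTATGNAA, the C/EBP-ATF element TGATGNAAT, the SRE TCACNCCAC, the HSE TTCNNGAA and the NRF2 element TGACNNNGC.

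Outside the lists of cytokines, acute phase proteins and neutrophil genes used here, which do not hold every such gene, the steepest rises were of genes of several kinds. Acod1 (gene ID 306127), the mitochondrial enzyme that makes itaconate in activated macrophages, was at 0.0706, 0.489, 0.145, 0.352 and 0.276 CPM in Sham and 7.15, 13.8, 10.6, 8.35 and 6.84 CPM in CLP (log2 change 5.08 ± 0.40, adjusted p = 5.16e-08). Every CLP library was above every Sham library by a wide margin. Gpr84, a receptor for medium-chain fatty acids on myeloid cells, went from 0.212 ± 0.102 to 6.96 ± 1.57 CPM (4.98 ± 0.35). Adamts4 (gene ID 66015), a secreted protease that cuts the proteoglycans aggrecan and versican, was at 0.847, 0.28, 0.436, 0.493 and 0.276 CPM in Sham and 4.22, 8.69, 7.31, 10.0 and 9.93 CPM in CLP (log2 change 4.08 ± 0.31, adjusted p = 3.42e-08). The lowest CLP library, replicate 1, was still several times the highest Sham library. Ebi3, a subunit shared by cytokines of the Il12 family, rose by 4.57 ± 0.37, Pi15, a secreted peptidase inhibitor, by 4.09 ± 0.44, and Ripply1, a repressor of transcription known from somite formation, by 5.13 ± 0.72. The type I keratin gene Ka11 rose by 4.45 ± 0.55 and Mro by 3.68 ± 0.40.

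Other steep rises included genes known from secretory and nerve cells. Syt1, the calcium sensor of vesicle release, was at 1.34, 2.17, 3.05, 1.48 and 2.28 CPM in Sham and 22.1, 25.1, 21.9, 25 and 16 CPM in CLP (log2 change 3.41 ± 0.25, adjusted p = 2.79e-08). The groups were far apart, and the CLP libraries lay close together. Ptprn, a protein of dense-core secretory vesicles, rose by 4.21 ± 0.79 (4.79 without Sham replicate 1). Tacr1, the substance P receptor, rose from 0.961 ± 1.22 to 12 ± 11.9 CPM (3.64 ± 0.71), with values of 4.80 without Sham replicate 3 and 2.80 without CLP replicate 5. Prokr2, a receptor for the prokineticins, went from 0.62 ± 0.959 to 6.42 ± 2.01 CPM (3.35 ± 0.60, and 4.99 without Sham replicate 1). Cldn2, a claudin that makes tight junctions permeable to cations and water, went from 4.11 ± 4.19 to 45.6 ± 23.8 CPM (3.47 ± 0.62, and 4.25 without Sham replicate 1). The water and glycerol channel gene Aqp3 had a fitted change of 4.01 ± 1.41 (adjusted p = 0.0298), but its call was lost without Sham replicate 1, 2 or 5 (adjusted p = 0.0627, 0.0624 and 0.0643) and without CLP replicate 3, where its change was 2.22 and its adjusted p = 0.207. Without Sham replicate 4 its change was 4.61.

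Rises among abundant genes (100 CPM or more in CLP) were of several kinds. Pla2g2a, a secreted phospholipase A2 that attacks bacterial membranes, was at 91, 12.8, 3.85, 4.08 and 4.42 CPM in Sham and 243, 335, 244, 304 and 437 CPM in CLP (log2 change 3.75 ± 0.81, adjusted p = 0.00138). Sham replicate 1 was far above the other Sham libraries and still below every CLP library, and without it the change was 5.63. Serpinb1a (gene ID 291091), an intracellular inhibitor of neutrophil serine proteases whose promoter is shown above, was at 85.2, 67.7, 95, 68.3 and 64.9 CPM in Sham and 438, 792, 682, 485 and 622 CPM in CLP (log2 change 2.99 ± 0.24, adjusted p = 7.99e-08). Slc39a8 (gene ID 295455), an importer of zinc and manganese, was at 165, 104, 148, 52.1 and 79.9 CPM in Sham and 444, 399.7, 446, 520.2 and 600.3 CPM in CLP (log2 change 2.13 ± 0.28, adjusted p = 9.08e-06). In both genes all CLP libraries were above all Sham libraries. Zbtb16, a zinc finger repressor, rose from 68.6 ± 41.3 to 312 ± 23.9 CPM, Sod2, the mitochondrial superoxide dismutase, from 117 ± 9.69 to 633 ± 69.4 CPM, and Cdkn1a, the cell cycle inhibitor p21, from 23.9 ± 4.38 to 124 ± 18.7 CPM. Aoc1, the diamine oxidase that breaks down histamine and putrescine, rose from 23.1 ± 15.3 to 106 ± 64.3 CPM (2.20 ± 0.67), but its call rested on CLP replicate 5 (1.76 and adjusted p = 0.0503 without it).

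The steepest falls that held without Sham replicate 1 were of genes of several kinds. Cntn2 (gene ID 25356), an adhesion protein anchored to the membrane of neurons, was at 29.1, 39.9, 43.1, 27.7 and 32.6 CPM in Sham and 3.79, 2.61, 4.2, 1.76 and 1.62 CPM in CLP (log2 change -3.62 ± 0.30, adjusted p = 7.99e-08). Mamdc2 (gene ID 309410), a secreted proteoglycan, was at 73.2, 51.8, 26.3, 74.9 and 66.3 CPM in Sham and 7.79, 7.42, 10.9, 5.42 and 7.35 CPM in CLP (log2 change -2.91 ± 0.30, adjusted p = 9.34e-07). In both genes the lowest Sham library was far above the highest CLP library. Krt76, a keratin of stratified epithelium, fell from 24.5 ± 6.38 to 2.62 ± 1.27 CPM, and the squamous and airway surface list to which it belongs had 5 of 10 tested members lower and none higher. Prph, the intermediate filament protein peripherin of peripheral neurons, changed by -2.88 ± 0.41, and Pcp4l1, Cct6b, a chaperonin subunit, Tmem255a and Atp1b4 by -2.86 ± 0.37, -2.85 ± 0.29, -2.80 ± 0.31 and -2.74 ± 0.36. Sham replicate 1 moved 5 of the leading falls by over 1.5-fold without ending the call: Tm4sf4 from -5.93 to -4.63, Esr1, the estrogen receptor alpha, from -3.63 to -2.89, Slc26a3, a chloride and bicarbonate exchanger, from -3.06 to -2.21, Mest from -2.77 to -1.97, and Wnt2b, a Wnt ligand, from -2.76 to -2.16. Adh7, a retinol dehydrogenase, changed by -3.62, and by -4.25 without CLP replicate 1. Among abundant genes Dbp, a clock-controlled transcription factor, fell from 106 ± 39.7 to 14.4 ± 9.1 CPM (-2.87 ± 0.59) and Phactr1, a regulator of actin and phosphatase 1, from 162 ± 21.2 to 45.6 ± 9.36 CPM (-1.83 ± 0.15).

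Basement membrane genes fell as a group. Of 34 tested members of the list of laminins, type IV collagens and basement membrane proteins, 22 were lower and 3 higher, with a median log2 change of -0.49 against -0.01 over all tested genes; without Sham replicate 1, 20 were lower and the median was -0.49. The 3 genes of the Fraser complex, large proteins that fasten epithelium to the connective tissue beneath it, all fell. Fras1 (gene ID 289486) was at 106, 99, 108, 89.2 and 92.1 CPM in Sham and 41.4, 30.8, 26.3, 19 and 28.6 CPM in CLP (log2 change -1.76 ± 0.14, adjusted p = 7.17e-08). Frem2 (gene ID 310418) was at 45.2, 51.3, 57.3, 32.4 and 33.5 CPM in Sham and 18.1, 15.1, 18.8, 15.7 and 15.1 CPM in CLP (log2 change -1.41 ± 0.18, adjusted p = 8.57e-06). The third, Frem1, went from 13.7 ± 2.93 to 2.98 ± 1.04 CPM (-2.19 ± 0.31). In all 3 the highest CLP library was below the lowest Sham library.

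An integrin that binds there fell too. Integrin alpha 8, gene Itga8 (gene ID 364786, promoter shown above), pairs with beta 1 on lung fibroblasts and smooth muscle and binds nephronectin, and it was at 234, 226, 77.8, 220.0 and 198 CPM in Sham and 35, 40.7, 41.7, 25.9 and 25.6 CPM in CLP (log2 change -2.50 ± 0.27, adjusted p = 1.62e-06). One Sham library, replicate 3, was well below the other 4 and still above every CLP library. Its ligand nephronectin, Npnt, fell from 787 ± 132 to 561 ± 55 CPM (-0.49 ± 0.13). Per length, in the deposited TPM (transcripts per 1000000), Npnt was the more abundant of the pair in both groups, at 262 ± 46.4 TPM in Sham and 176 ± 15.2 TPM in CLP against 50.5 ± 17.6 and 8.36 ± 2.04 TPM for Itga8.

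The nidogen and perlecan genes that knit laminin to collagen IV fell too. Nid1 (gene ID 25494) was at 264, 200.3, 146, 183 and 166 CPM in Sham and 87.3, 89.4, 105, 109 and 84 CPM in CLP (log2 change -1.02 ± 0.15, adjusted p = 2.86e-05), and Hspg2, the core protein of perlecan, went from 252 ± 39.2 to 159 ± 13.8 CPM (-0.66 ± 0.10). Col15a1, a collagen of vessel basement membrane, fell from 86.1 ± 37 to 24.8 ± 5.36 CPM (-1.80 ± 0.31). Pxdn, the peroxidase that crosslinks collagen IV, fell from 387 ± 46.5 to 222 ± 18.1 CPM (-0.80 ± 0.09). Among laminin chains, Lama3, Lamb1 and Lamb3 changed by -0.64, -0.63 and -0.39, whereas Lama5, the alpha chain of the alveolar and vessel laminins, rose by 0.35 ± 0.08. The other rises were of Tinagl1 (0.53 ± 0.13) and Smoc2 (1.09 ± 0.28), both small matrix proteins. The calls of Nid2 (-0.83) and Smoc1 (-2.87) were lost without Sham replicate 1 (-0.35 and 0.11), and that of Smoc1 also when any single CLP library was left out (adjusted p = 0.0616 to 0.0832). Summed mesothelial and adipose levels in Sham replicate 1 are given above, and the fall of the other 20 genes was called without that library.

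More fibroblast markers fell than rose. Of 31 tested markers of alveolar and adventitial fibroblasts 16 were lower and 4 higher, with a median of -0.49 (14 lower and -0.51 without Sham replicate 1). Mfap4, a microfibril protein, fell from 1492 ± 349 to 725 ± 226 CPM, Cdh11, an adhesion molecule of mesenchyme, from 79 ± 53.9 to 36.4 ± 7.26 CPM, Tcf21, the fibroblast transcription factor, from 114 ± 14.6 to 73.5 ± 9.64 CPM, and Cd34 from 45.3 ± 5.49 to 18.6 ± 2.94 CPM. Much of the Sham mean of Cdh11 came from Sham replicate 1, at 173 CPM, while the next highest Sham library held 70.3 CPM. Not every marker fell: Pdgfra, the PDGF receptor alpha of alveolar fibroblasts, was at 187, 178, 180.2, 166 and 193 CPM in Sham and 311, 369, 354, 466 and 413 CPM in CLP and rose by 1.08 ± 0.12 (adjusted p = 1.38e-06). Hhip, an inhibitor of hedgehog signalling, also rose (0.73 ± 0.19). Fbln5, a fibulin of elastic fibres, fell from 123 ± 29 to 33.6 ± 5.28 CPM (-1.88 ± 0.20), and Nrep, a small protein of wound myofibroblasts, from 166 ± 37.5 to 46 ± 5.23 CPM (-1.85 ± 0.22).

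**Figure D3:**
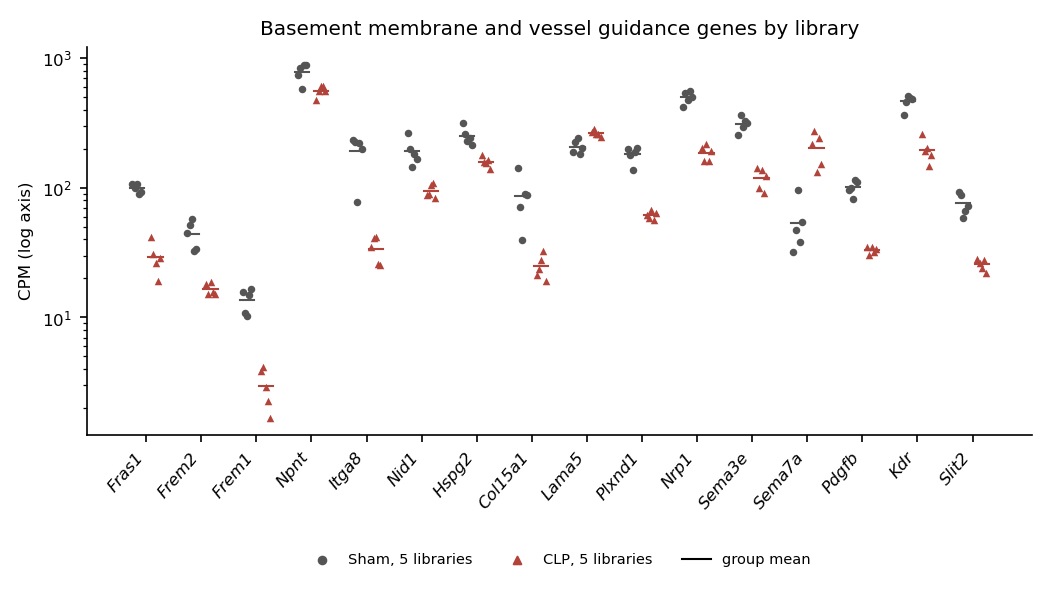
CPM on a log axis for 16 genes of the basement membrane and of vessel guidance, with 5 Sham libraries (circles), 5 CLP libraries (triangles) and group means (bars). Lama5 and Sema7a are higher in CLP and the other 14 lower, and in every gene shown but Npnt the groups do not overlap.

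Of the genes that guide vessels and nerves, several receptors and ligands fell and fewer rose. Of 30 tested semaphorins, plexins and neuropilins 12 were lower and 6 higher (median -0.12). Plxnd1 (gene ID 312652), the endothelial plexin, was at 199, 178, 137, 188 and 203 CPM in Sham and 61.3, 58.3, 67.8, 56.9 and 63.6 CPM in CLP (log2 change -1.56 ± 0.14, adjusted p = 2.4e-07). Nrp1 (gene ID 246331), neuropilin 1, a co-receptor for class 3 semaphorins and VEGF, was at 424, 538, 479, 555 and 498 CPM in Sham and 204, 160.3, 219, 160.1 and 192 CPM in CLP (log2 change -1.41 ± 0.14, adjusted p = 4.32e-07). No CLP library reached the lowest Sham library in either receptor. Sema3e, the ligand that binds Plxnd1 directly, was at 257, 367, 292, 329 and 317 CPM in Sham and 143, 99.7, 137, 91.5 and 122 CPM in CLP (log2 change -1.40 ± 0.16, adjusted p = 1.77e-06). The other secreted class 3 ligands Sema3a, Sema3c and Sema3g changed by -0.84 ± 0.13, -0.79 ± 0.13 and -0.94 ± 0.16, and Nrp2 by -0.57 ± 0.06. The 6 rises were all of semaphorins of other classes, among them Sema7a, anchored by a lipid and made by leukocytes as well as stroma, from 53.7 ± 25 to 205 ± 59.8 CPM (1.93 ± 0.30), Sema6b (1.61 ± 0.22) and Sema4d, the semaphorin of T cells and platelets (1.10 ± 0.20).

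The ephrin, netrin and Slit list had 16 of 32 tested members lower and 3 higher, with a median of -0.33. Slit2, a secreted repellent that binds Robo receptors, was at 93.2, 88.3, 58.2, 65.8 and 73 CPM in Sham and 28.1, 26.3, 24, 27.7 and 22.1 CPM in CLP (log2 change -1.56 ± 0.17, adjusted p = 1.14e-06). Ephb1, an ephrin receptor, changed by -3.13 ± 0.64 and Unc5b, the netrin receptor of endothelium, by -0.70 ± 0.12. The ephrin receptor Ephb6 rose by 1.29 ± 0.36. Efnb2, ephrin B2, the artery marker, fell from 385 ± 26.1 to 259 ± 32.1 CPM (-0.57 ± 0.11). The Notch ligand of sprouting vessels, Dll4, fell from 134 ± 14.8 to 71.7 ± 10.4 CPM (-0.90 ± 0.12), while another Notch ligand, Dll1, rose from 15 ± 2.62 to 41.9 ± 4.15 CPM (1.48 ± 0.13). The Notch list as a whole had 11 of 33 tested members lower and 5 higher (median -0.08).

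Capillary genes were lower in part. Aerocytes are the large capillary cells that carry gas exchange, and of 17 tested aerocyte markers 10 were lower and 3 higher, with a median of -0.49. Kdr, the main VEGF receptor of endothelium, was at 368, 462, 512, 489.7 and 488 CPM in Sham and 258, 191, 204, 148 and 178 CPM in CLP (log2 change -1.25 ± 0.15, adjusted p = 4.53e-06). Kitlg, stem cell factor, fell from 422 ± 52 to 213 ± 22.2 CPM (-0.99 ± 0.11), Scn7a, a sodium channel protein, from 115 ± 41.8 to 32.6 ± 5.4 CPM (-1.82 ± 0.24) and Tbx2, a T-box factor, from 164 ± 14.6 to 68.7 ± 10.3 CPM (-1.26 ± 0.16). Ednrb, the endothelin B receptor and another aerocyte marker, rose from 276 ± 55.5 to 503 ± 87.4 CPM (0.86 ± 0.15), and Fibin rose by 0.94 ± 0.21. The summed level of the 18 aerocyte genes in the table was 5636 to 7385 CPM in Sham and 4509 to 5494 CPM in CLP, without overlap. Of 18 tested markers of general capillaries 7 were lower and 2 higher (median -0.14), and their summed level was 5076 to 5553 CPM in Sham and 4002 to 5146 CPM in CLP. Cxcl12, the stromal chemokine that holds leukocytes, fell from 124 ± 27.7 to 33.7 ± 3.37 CPM (-1.88 ± 0.17) and Aplnr, the apelin receptor, from 174 ± 24.4 to 79.4 ± 12.1 CPM (-1.13 ± 0.13). Plvap, the diaphragm protein of capillary openings, fell from 678 ± 94.6 to 381 ± 80.8 CPM (-0.83 ± 0.14).

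Vein and artery genes moved in both directions, with 7 of 22 higher and 7 lower. Selp, P-selectin, which catches leukocytes on venules, rose from 8.92 ± 3.03 to 34.5 ± 7.62 CPM (1.95 ± 0.21), and Ackr3, a receptor that removes Cxcl12, from 129 ± 33.2 to 334 ± 61.2 CPM (1.37 ± 0.15). Slc6a2, the noradrenaline transporter, rose from 36.1 ± 11.5 to 107 ± 19.2 CPM (1.57 ± 0.20), and Bmx, a kinase of arterial endothelium, by 1.65 ± 0.25. Of 15 tested lymphatic markers 6 were lower and 1 higher (median -0.43). Vegfd, a lymphatic growth factor, changed by -1.66 ± 0.33 and its receptor Flt4 by -0.67 ± 0.15, while Mmrn1 rose by 0.74 ± 0.21.

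Of 53 tested transcription factors of lung mesenchyme, epithelium and vessels 20 were lower and 5 higher, with a median of -0.26. The largest falls were of Meox2, a vascular homeobox factor (-1.42 ± 0.17), Tbx2, Foxf2, a mesenchymal forkhead factor (-1.14 ± 0.13), and Sox7, an endothelial factor (-1.05 ± 0.15). Smaller falls were seen in Sox18 (-0.64 ± 0.20), Erg (-0.46 ± 0.10), Tbx4 (-0.53 ± 0.09), Tbx5 (-0.59 ± 0.11) and Gata6 (-0.50 ± 0.07). Foxo3 rose by 0.67 ± 0.17 and Id1 by 0.46 ± 0.11. Among 58 tested chromatin modifiers 12 were higher and 8 lower, with a median of 0.04 (10 and 13 with total count scaling). Together 34.5% of them were called, against 40.3% of all tested genes. The largest change was of Tet1, an enzyme that oxidises methylated cytosine, from 12 ± 2.05 to 2.71 ± 0.559 CPM (-2.14 ± 0.19).

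Genes of growth factor signalling changed at ligand, receptor and feedback level. In the FGF list 10 of 29 tested members were lower and 2 higher, with a median of -0.31 (41.4% called, against 40.3% of all tested genes). Without Sham replicate 1, 11 were lower and 2 higher, and the median was -0.18. Fgfr4 (gene ID 25114), an FGF receptor of alveolar fibroblasts, was at 79.6, 81.6, 75.7, 88.3 and 87.9 CPM in Sham and 18.7, 21.8, 20.9, 15.2 and 13.6 CPM in CLP (log2 change -2.19 ± 0.19, adjusted p = 1.68e-07). Its ligand Fgf1 fell from 58.4 ± 34.3 to 16.8 ± 2.19 CPM (-1.80 ± 0.29), Fgf7, keratinocyte growth factor, from 32.9 ± 3.55 to 20.8 ± 3.72 CPM (-0.66 ± 0.11) and Etv4, a target of FGF signalling, from 10.1 ± 1.64 to 2.8 ± 0.559 CPM (-1.86 ± 0.19). Flrt3, a membrane protein that binds FGF receptors, fell from 156 ± 18.1 to 69.8 ± 8.52 CPM (-1.16 ± 0.09), whereas its relative Flrt2 rose from 43 ± 22.3 to 174 ± 41.3 CPM (2.02 ± 0.31). Spred3, an inhibitor of the Ras pathway, rose from 5.98 ± 0.901 to 24 ± 5.75 CPM (2.01 ± 0.17).

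PDGF ligands and their receptors went different ways. Pdgfb (gene ID 24628), made by endothelium to hold pericytes, was at 96.2, 99.6, 82, 115 and 111 CPM in Sham and 35, 30.2, 35.2, 32.2 and 33.8 CPM in CLP (log2 change -1.60 ± 0.11, adjusted p = 2.32e-08). Among all falls it had the lowest adjusted p. Pdgfa and Pdgfrb changed by -0.69 ± 0.11 and -0.64 ± 0.09, and Pdgfc rose by 1.27 ± 0.19. In the EGF family Erbb3, a neuregulin receptor, rose from 119.7 ± 17 to 292 ± 43.2 CPM (1.28 ± 0.10), Egfr by 0.51 ± 0.12 and Errfi1, a feedback inhibitor of Egfr, by 1.12 ± 0.11. The repair factor Hgf and its receptor Met rose by 0.83 ± 0.10 and 0.54 ± 0.12. Igfbp5, a binding protein for insulin-like growth factors, changed by -2.08 ± 0.37. In the list of Hippo pathway members and YAP targets 15 of 35 were lower and 7 higher (median -0.15), and the targets Ccn2 and Ankrd1 fell from 235 ± 20.5 to 104 ± 17.2 CPM and from 32.3 ± 11.2 to 10.5 ± 2.15 CPM.

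**Figure D4:**
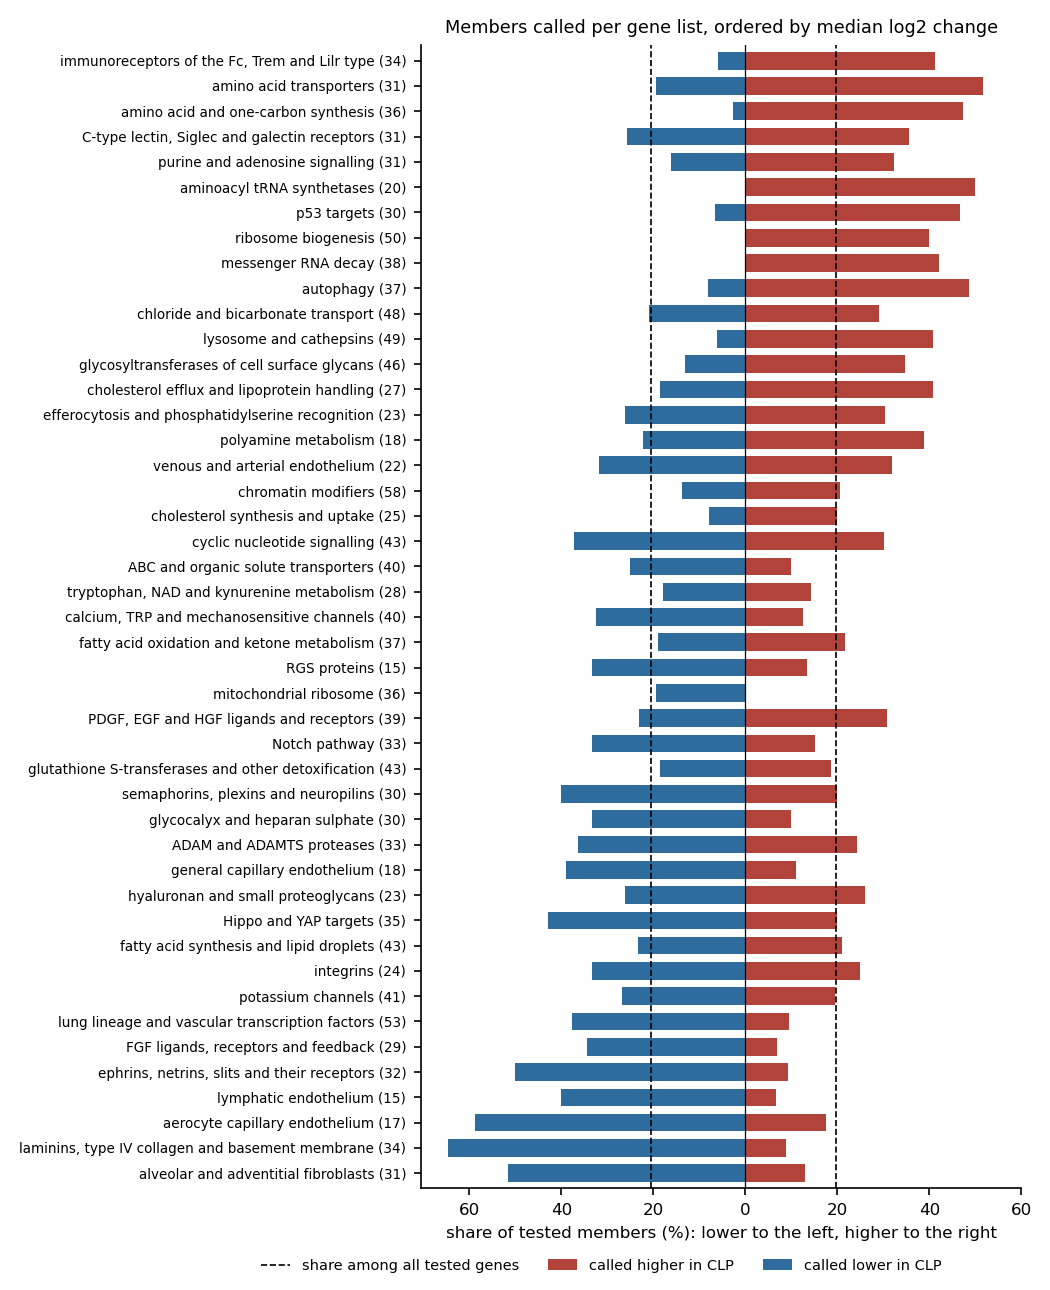
Share of the tested members of each gene list shown that were called higher (right, red) and lower (left, blue) in CLP, with the number tested in brackets and lists ordered by their median log2 change. Dashed lines mark the shares among all tested genes, 19.8% higher and 20.5% lower. Lists of fibroblasts, basement membrane and aerocytes stand at the bottom, and immunoreceptors and amino acid transporters at the top.

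Proteases and proteoglycans of the provisional matrix changed in opposite directions within one family. ADAM and ADAMTS proteases had 12 of 33 tested members lower and 8 higher. Beside Adamts4, the proteoglycan-cutting members Adamts1, Adamts5 and Adamts9 rose by 1.32 ± 0.19, 1.30 ± 0.35 and 1.57 ± 0.17. Versican, gene Vcan, the large proteoglycan that these enzymes cut, was at 11.1, 11, 12.1, 14 and 23.1 CPM in Sham and 30.1, 92.7, 54.7, 73.9 and 54 CPM in CLP (log2 change 2.10 ± 0.31, adjusted p = 3.43e-05). Adamts10, which binds microfibrils, was at 229.6, 181, 153, 169.6 and 188 CPM in Sham and 70.5, 69.5, 73.2, 84.4 and 73.4 CPM in CLP (log2 change -1.31 ± 0.11, adjusted p = 7.99e-08). The groups did not overlap in either gene. Adamtsl3, a relative without protease activity, changed by -1.67 ± 0.15 and Adam33 by -1.63 ± 0.26. Hyal2 and Cemip2, which take part in hyaluronan breakdown, rose from 144 ± 35.9 to 319 ± 59.3 CPM and from 103 ± 17.2 to 224 ± 23.3 CPM, and the small proteoglycan gene Prelp changed by -0.96 ± 0.13.

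Among cyclic nucleotide genes, those of the nitric oxide receptor fell, as did Pde5a, whose enzyme destroys cyclic GMP. Soluble guanylate cyclase, the receptor of nitric oxide, is a pair of subunits: Gucy1a1 fell from 187 ± 13.6 to 117 ± 7.72 CPM (-0.67 ± 0.08) and Gucy1b1 from 114 ± 11.4 to 74.6 ± 6.59 CPM (-0.61 ± 0.10), and Gucy1a2 by 0.69 on the log2 scale. Pde5a (gene ID 171115), the phosphodiesterase that destroys cyclic GMP and is the target of sildenafil, was at 267, 310.0, 196, 243 and 281 CPM in Sham and 102, 97.5, 124, 99.5 and 81 CPM in CLP (log2 change -1.36 ± 0.16, adjusted p = 3e-06). For the natriuretic peptides, which make cyclic GMP through a membrane cyclase, the signalling receptor Npr1 changed by -0.21 ± 0.07, a call that was lost without Sham replicate 5 (-0.18, adjusted p = 0.0687) or CLP replicate 3 (-0.19, adjusted p = 0.0603). Npr3 (gene ID 25339), the receptor that clears these peptides, was at 209, 201, 227, 144 and 216 CPM in Sham and 719, 677, 855, 1030.4 and 788 CPM in CLP (log2 change 2.03 ± 0.15, adjusted p = 3.63e-08). Its lowest CLP library was far above the highest Sham library. Per length, Npr3 stood at 54.7 ± 9.44 TPM in Sham and 208 ± 33.1 TPM in CLP and Npr1 at 52.4 ± 4.2 and 42.6 ± 2.51 TPM. Npr3 is also made by fat, and Sham replicate 1, the library with fat RNA, held 209 CPM of it.

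Several cyclic AMP genes rose. Of 43 tested cyclic nucleotide genes in all, 13 were higher and 16 lower (9 and 17 with total count scaling). Crem, a transcription factor induced by cyclic AMP, rose from 27.4 ± 2.94 to 53.9 ± 15.3 CPM (0.98 ± 0.15), and the cyclic AMP phosphodiesterases Pde4b, Pde4d and Pde7a by 0.67 ± 0.18, 0.63 ± 0.11 and 0.92 ± 0.14. The adenylate cyclases Adcy3 and Adcy9 changed by -1.08 ± 0.11 and -0.83 ± 0.09, and Pde1b, regulated by calmodulin, by -2.56 ± 0.50 (-1.73 without Sham replicate 1). Rgs1, which shortens G protein signals in leukocytes, rose by 2.09 ± 0.32, while Rgs4 and Rgs5, known from smooth muscle and pericytes, changed by -0.90 ± 0.20 and -0.83 ± 0.16.

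Among calcium, TRP and mechanosensitive channels 13 of 40 were lower and 5 higher. Cacna1c, the L-type calcium channel of smooth muscle, fell from 21.7 ± 2.47 to 9.5 ± 0.738 CPM (-1.19 ± 0.11) and Piezo2, a stretch-gated channel, from 73.2 ± 17.2 to 34.3 ± 6.73 CPM (-1.09 ± 0.17). Trpm2, a calcium channel of myeloid cells opened by oxidants, rose from 15.4 ± 2.89 to 43.4 ± 9.75 CPM (1.49 ± 0.18). Potassium channels had 11 of 41 lower and 8 higher (46.3% called, against 40.3% of all tested genes). Kcnj15 rose from 171 ± 57.7 to 347 ± 19.4 CPM and Kcnk5 from 3.22 ± 1.07 to 8.03 ± 1.78 CPM, and Kcnd3 fell from 25.2 ± 2.28 to 9.18 ± 1.77 CPM. In the chloride and bicarbonate list 14 of 48 were higher and 10 lower (12 and 12 with total count scaling), with Slc4a4, a sodium bicarbonate cotransporter, down by 0.83 and Ca12, a membrane carbonic anhydrase, up by 1.16 on the log2 scale.

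Among amino acid transporters more genes rose than fell. Of 31 tested, 16 were higher and 6 lower (median 0.38; 14 and 7 with total count scaling). Slc7a1 (gene ID 25648), the main importer of arginine and lysine, was at 13.3, 13.6, 11, 10.2 and 8.77 CPM in Sham and 39.7, 37.4, 31.1, 43.9 and 39.7 CPM in CLP (log2 change 1.75 ± 0.20, adjusted p = 2.16e-06). Slc7a6, which exchanges arginine for glutamine, was at 48, 38.2, 43.4, 29.7 and 41 CPM in Sham and 126, 142, 115, 118 and 105 CPM in CLP (log2 change 1.60 ± 0.13, adjusted p = 5.16e-08). The groups were separate in both. Slc38a2, a glutamine and alanine importer, rose from 201 ± 31 to 342 ± 22.7 CPM, Slc7a8, a neutral amino acid exchanger, from 25.3 ± 11.4 to 58.4 ± 8.43 CPM, and Slc43a3, now known as a purine base transporter, from 190.2 ± 98.2 to 409 ± 101 CPM. Slc38a5, another glutamine transporter, was at 18.3, 15.9, 9.87, 23.4 and 18.3 CPM in Sham and 2.64, 3.53, 3.19, 2.2 and 1.69 CPM in CLP (log2 change -2.69 ± 0.27, adjusted p = 5.31e-07). Slc7a10, a transporter of small amino acids, and Slc1a5, a glutamine exchanger, changed by -2.32 ± 0.36 and -0.90 ± 0.27. For Slc1a5, Sham replicate 1 held 75.3 CPM and the next highest Sham library 29 CPM.

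Among genes of amino acid synthesis and of the translation machinery more were called higher than lower. In the amino acid and one-carbon list 17 of 36 tested genes were higher and 1 lower (median 0.31). Atf4, the transcription factor of the amino acid stress response, rose from 232 ± 20.8 to 392 ± 21.6 CPM (0.75 ± 0.06), Bcat1, which starts the breakdown of branched-chain amino acids, from 6.41 ± 1.87 to 24.4 ± 6.19 CPM (1.92 ± 0.22), and Glul, glutamine synthetase, from 508 ± 130.3 to 955 ± 41.6 CPM (0.91 ± 0.14). Mthfd2, an enzyme of mitochondrial folate metabolism, rose by 0.81 ± 0.17, while the cytosolic serine hydroxymethyltransferase Shmt1 changed by -0.72 ± 0.11. Of 20 tRNA synthetases tested 10 were higher and none lower, all by less than 1.5-fold, with Sars1 (0.42 ± 0.05) and Qars1 (0.33 ± 0.05) highest. With total count scaling 8 were higher and 1 lower. Of 50 ribosome biogenesis genes 20 were higher and none lower (18 and 1 with total count scaling; median 0.15 and 0.10). Ncl, nucleolin, rose from 273 ± 17.3 to 348 ± 18.8 CPM, Npm1, nucleophosmin, from 287 ± 17.8 to 373 ± 38.3 CPM, and Ddx21, a nucleolar helicase, from 101 ± 4.18 to 133 ± 6.07 CPM. Mitochondrial ribosome genes had none of 36 higher and 7 lower (19.4%, where 20.5% of all tested genes were lower), led by Mrpl16 (-0.39 ± 0.10). Without Sham replicate 1 these were 1 and 5.

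**Figure D5:**
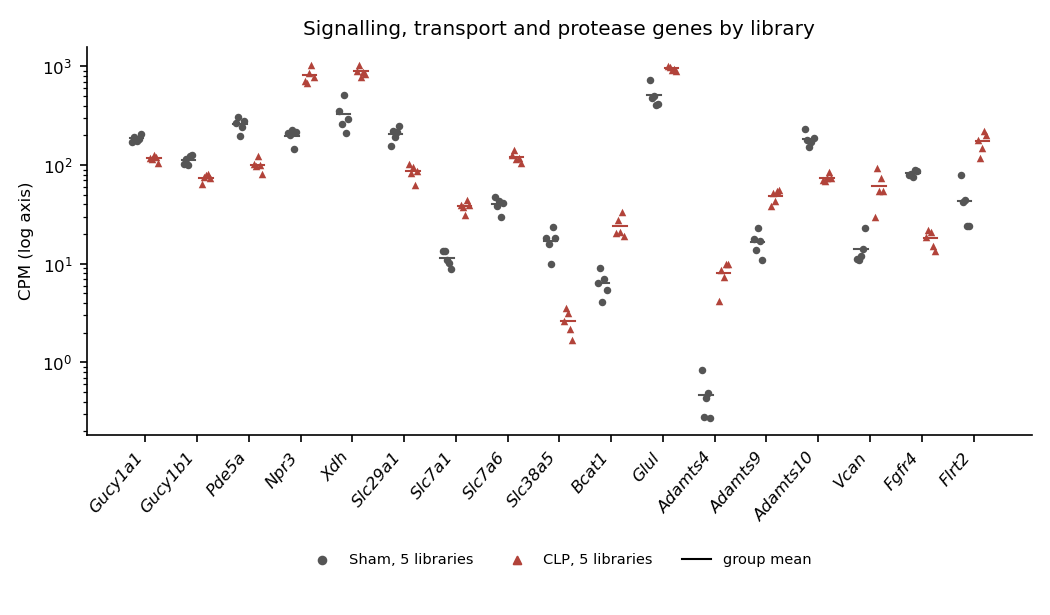
CPM on a log axis for 17 genes of cyclic GMP signalling, purine and amino acid handling, matrix proteases and FGF signalling, with 5 Sham libraries (circles), 5 CLP libraries (triangles) and group means (bars). Npr3, Xdh, Slc7a1, Slc7a6, Bcat1, Glul, Adamts4, Adamts9, Vcan and Flrt2 are higher in CLP, and the other 7 genes are lower.

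Purine genes changed at breakdown, uptake and receptor level. Xdh (gene ID 497811), which makes uric acid and can release superoxide, was at 350.1, 264, 518, 212 and 290.1 CPM in Sham and 896, 1042, 783, 884 and 844 CPM in CLP (log2 change 1.44 ± 0.21, adjusted p = 3.4e-05). Slc29a1, the carrier that takes adenosine out of the extracellular space, was at 155, 222, 191, 216 and 248 CPM in Sham and 101, 83.8, 95.6, 63.2 and 87.9 CPM in CLP (log2 change -1.26 ± 0.18, adjusted p = 2.98e-05). Both pairs of groups were separate. Entpd1, the ectoenzyme that removes ATP, changed by -0.51 ± 0.09, and P2ry13, a receptor for ADP on myeloid cells, rose by 1.55 ± 0.27. In the polyamine list Odc1, which makes putrescine, rose by 0.48 ± 0.14 (adjusted p = 0.0506 when only the 10 libraries were fitted), and Oaz2, an inhibitor of Odc1, changed by -0.90 ± 0.10.

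Lipid genes moved in both directions. Fads1 and Fads2, the desaturases that make polyunsaturated fatty acids, fell from 149 ± 19.1 to 67.4 ± 11.9 CPM and from 62 ± 2.63 to 27.9 ± 3.66 CPM, and Mgll, the lipase that degrades monoacylglycerols, from 134 ± 29.7 to 61.1 ± 4.21 CPM. G0s2, an inhibitor of lipolysis, changed by -1.80 ± 0.20. Pdk4, which turns off glucose oxidation, rose from 6.78 ± 2.94 to 33.9 ± 4.21 CPM (2.32 ± 0.23), Cpt1a, the carnitine shuttle for fatty acids, by 0.56 ± 0.12, and Angptl4, an inhibitor of lipoprotein lipase, by 1.84 ± 0.41 (2.57 without Sham replicate 1). In the cholesterol handling list 11 of 27 were higher and 5 lower (10 and 5 with total count scaling): the scavenger receptor Msr1 rose by 1.39 ± 0.22, the lysosomal cholesterol carrier Npc2 by 0.73 ± 0.16 and the 25-hydroxylase Ch25h by 1.21 ± 0.22, while Scarb1, the HDL receptor, fell from 113 ± 19.8 to 56.8 ± 4.43 CPM. The fall of Apoe (-0.84) was not called without Sham replicate 1 (-0.49), nor was that of Acsl1 (-1.53, and -0.20 without it), whose call was also lost when any single CLP library was left out (adjusted p = 0.0571 to 0.069). Fatty acid oxidation genes were called at shares near those of all genes, 8 of 37 higher and 7 lower.

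Genes of RNA turnover, autophagy and the lysosome rose more often than they fell, by small amounts. Of 38 messenger RNA decay genes 16 were higher and none lower, with a median of 0.15 (13 and 1 with total count scaling, median 0.10). Zc3h12a, the endonuclease Regnase-1 that cuts inflammatory transcripts, was at 13.5, 11.3, 14.4, 12.5 and 14.7 CPM in Sham and 36.2, 45.8, 35.4, 39.8 and 42.4 CPM in CLP (log2 change 1.59 ± 0.10, adjusted p = 7.01e-09). Zc3h12c, its relative, and Zfp36, which binds AU-rich transcripts, rose from 37.3 ± 7.68 to 64.3 ± 5.13 CPM and from 108 ± 17.2 to 196 ± 23.3 CPM. Pabpc1, the poly(A)-binding protein, rose from 443 ± 23.6 to 702 ± 69.2 CPM. Of 37 autophagy genes 18 were higher and 3 lower (14 and 5 with total count scaling), led by the mitophagy receptor Bnip3 (0.79 ± 0.21) and by Gabarapl1 (0.60 ± 0.08) and Map1lc3b (0.57 ± 0.07), the proteins that coat autophagosomes. Of 49 lysosome genes 20 were higher and 3 lower (18 and 5 with total count scaling), led by the cathepsins Ctsl, Ctss and Ctsh (0.96 ± 0.12, 0.82 ± 0.12 and 0.71 ± 0.12). Of 30 p53 target genes 14 were higher and 2 lower (11 and 3 with total count scaling). Cdkn1a aside, Tp53inp1 rose by 0.79 ± 0.07, and Phlda3 and Perp changed by -0.88 ± 0.17 and -0.70 ± 0.10.

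Immune receptors outside the cytokine lists were higher in part, beside a rise in neutrophil genes. Of 32 tested neutrophil genes 26 were higher and 1 lower, and their summed level over the 40 in the table was 13971 to 19553 CPM in Sham and 17406 to 23595 CPM in CLP, with overlap. Their part in the changes below was not tested. In the list of Fc, Trem and Lilr receptors 14 of 34 were higher and 2 lower (median 0.40). Fcgr2b, the inhibitory IgG receptor, was at 17.4, 13.9, 13.4, 16.9 and 14.5 CPM in Sham and 43.7, 61.4, 53, 87.3 and 50.5 CPM in CLP (log2 change 1.96 ± 0.19, adjusted p = 4.03e-07). Lilrb4, another inhibitory receptor, rose from 23.2 ± 9.02 to 66.4 ± 14.1 CPM (1.52 ± 0.37). Lilrb3a rose by 1.48 ± 0.27 and Lilrb3 changed by -1.54 ± 0.48, and both values are uncertain, since how reads were split between these similar genes is not known. Fcer2, the low-affinity IgE receptor of B cells, changed by -3.04 ± 0.48, and of 16 tested genes of lymphoid tissue 9 were lower and 2 higher. Among lectins Mrc1, the mannose receptor of alveolar macrophages, rose from 326 ± 50.6 to 646 ± 74.4 CPM (0.99 ± 0.15), and Lgals1, galectin 1, fell from 73.5 ± 45.5 to 22.7 ± 4.94 CPM (-1.69 ± 0.30). For the clearance of dying cells, the receptor Mertk rose from 19.4 ± 4.14 to 33.2 ± 3.12 CPM (0.78 ± 0.12) and its bridging ligand Gas6 changed by -0.60 ± 0.11. Mfge8, a bridging protein that is not a ligand of Mertk, changed by -0.47 ± 0.14.

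Integrin genes moved in both directions. Of 24 tested, 6 were higher and 8 lower. The leukocyte integrins Itgax and Itgb2 rose by 1.35 ± 0.19 and 0.64 ± 0.14, and Itga2b of platelets by 0.77 ± 0.17. Itgb6, the epithelial activator of TGF-beta, changed by -0.93 ± 0.24 and Itgb8, another activator of TGF-beta, by 1.58 ± 0.27. Syndecans on the cell surface differed among themselves: Sdc3 changed by -1.15 ± 0.11 and Sdc4 by 0.56 ± 0.07. Emcn, the endothelial sialomucin endomucin, changed by -1.15 ± 0.15. Sugar-adding enzymes had 16 of 46 tested higher and 6 lower (15 and 8 with total count scaling), with Galnt15 (1.73 ± 0.23) and Galnt10 (1.11 ± 0.21), which start O-linked chains, among the largest.

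Lung identity genes, of epithelium and of endothelium, moved in both directions, at shares near those of all tested genes. Of the 20 lung markers 4 were called higher and 5 lower (45% called, against 40.3% of all tested genes). Among these calls Cldn5 (higher), Cdh5 and Ca4 (both lower) are genes of endothelium. Sftpb, surfactant protein B, rose from 4285 ± 1134 to 6936 ± 836 CPM (0.69 ± 0.15), while Sftpc had a log2 value of 0.05 ± 0.12 (adjusted p = 0.775) and Nkx2-1, the lung epithelial transcription factor, of -0.07 ± 0.07 (adjusted p = 0.454), neither called. Aqp5, the water channel of type 1 cells and glands, was at 345, 421, 402, 403 and 417 CPM in Sham and 158, 79.8, 139, 73.6 and 118 CPM in CLP (log2 change -1.80 ± 0.21, adjusted p = 2.89e-06). It was the marker with the largest change, and its groups did not overlap. Ager, the type 1 cell receptor for glycated proteins, changed by -0.44 ± 0.12. Among detoxifying enzymes 8 of 43 were higher and 8 lower, also near the shares of all tested genes. The aldehyde dehydrogenase Aldh1a1 fell from 266 ± 71.8 to 109 ± 24.5 CPM (-1.28 ± 0.22), and the esterase Ces1c rose by 3.26 ± 0.41. Gpm6a, a membrane glycoprotein of neurons and mesothelium, fell from 117 ± 71.2 to 18.5 ± 5.02 CPM (-2.66 ± 0.43), and of 13 tested mesothelial genes 6 were lower and 3 higher (4 and 5 without Sham replicate 1).

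The libraries of stimulated rats gave a second comparison of the same operations, with no library in common, though both comparisons came from the same fit. In CLP+VNS against Sham+VNS, 4044 of the 14794 genes were called (27.3%), 2060 higher (13.9%) and 1984 lower (13.4%). Of all 2926 genes called higher without stimulation, 2799 were also higher there and 1715 were called. For the 3029 genes called lower, 2919 were also lower and 1638 were called. Of the 110 rising genes named by rule, all 110 were also higher there and 97 were called. Of the 104 falling genes, all 104 were also lower and 92 were called. Their median log2 changes were 0.97 without and 0.78 with stimulation for the rises and -1.11 and -0.71 for the falls. The genes were picked on the first comparison, so a smaller value in the second is no measure of stimulation. Fras1 changed by -1.62 ± 0.14 in the stimulated rats, Itga8 by -1.98 ± 0.27, Plxnd1 by -1.06 ± 0.14, Pdgfb by -1.40 ± 0.11, Fgfr4 by -1.60 ± 0.19 and Pde5a by -0.93 ± 0.16. On the rising side Npr3 changed by 1.74 ± 0.15, Slc7a1 by 1.45 ± 0.20, Xdh by 1.45 ± 0.21, Serpinb1a by 2.17 ± 0.24 and Syt1 by 2.89 ± 0.24. Of 1171 genes called with a change of at least 2-fold, 1123 had the same direction and 836 were also called. The difference between the 2 comparisons was tested for each gene in edgeR: no gene was called, and 1217 of 14794 had an unadjusted p below 0.05.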

How the data were processed

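Polyadenylated RNA of rat lung was sequenced after TRIzol extraction, per the labels' protocols. The authors deposited a gene-level table with read counts and TPM, and a transcript-level table that was not used here. The deposited counts are estimated counts, since 91.5% of values were whole and the rest fractional, and they were rounded to whole numbers. The TPM values were computed by the authors, per the file headers, and were used only to compare levels between genes. The genome build was mRatBN7.2, per the submitters' processing notes; the aligner, counter, annotation and strand setting were not given in the sources used here, so reads of overlapping genes may be shared.

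Columns were matched to samples by title, and groups were taken from the labelled treatment. Counts of all 20 libraries were fitted with 4 group means (16 residual degrees of freedom and a biological coefficient of variation of 0.161) by edgeR 4.0.16 (robust glmQLFit, glmQLFTest) with limma 3.58.1 in R 4.3.3, after TMM scaling and filterByExpr at a minimum count of 10. P-values were adjusted over 14794 genes by Benjamini and Hochberg. DESeq2 1.42.0 and other scalings, filters, library sets and fits with the title number as block were alternatives. The fit was tested on simulated data. Figures used Python 3.11.15 and matplotlib 3.10.9.

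Genes and lists were chosen with earlier results of these data known. The 61 lists held 2035 entries, 2000 of them found in the table (27 by synonym), 1928 distinct genes, 1712 of them tested. Genes were named by rule. The 15 largest changes in each direction at 5 CPM or more and the 8 largest at 100 CPM or more were taken among called genes without overlap between groups, for falls also without Sham replicate 1, outside the lists of cytokines, acute phase proteins and neutrophil genes. Up to 2 called genes of lowest p per list and direction and the 20 lung markers were added, overlapping or not. Other list members named in the text were chosen after their values were seen. The results of 1 list and 1 gene are not reported here. Symbols and synonyms were checked against RefSeq's table for GRCr8, which held 18800 of the 19060 genes.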

Additional observations from a re-analysis of the deposited data

Results flagged for a closer look

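In each named gene the 5 values of a group were searched for one set apart from the rest, by Dixon's ratio of the gap to the range above 0.71. Of 498 groups 57 (11.4%) held such a value. Chance sets apart about 5% where values are normally distributed, which was not checked for CPM. Some of these genes, such as Adipoq and Ca3, were named because Sham replicate 1 stood apart, so these shares are not comparable. Sham replicate 1, the library with RNA of fat, stood above the other Sham libraries in 26 genes: Acsl1 (333 CPM), Adam33 (64.5 CPM), Adipoq (285 CPM), Angptl4 (37 CPM), Apoe (1161 CPM), Bnip3 (129 CPM), Ca3 (1685 CPM), Cdh11 (173 CPM), Ephb6 (7.2 CPM), Esr1 (15.3 CPM), Itgb8 (16.3 CPM), Lgals1 (154 CPM) and Mest (14.9 CPM) among them. The rest were Nid2 (74 CPM), Pde1b (28.2 CPM), Pla2g2a (91 CPM), Prokr2 (2.33 CPM), Ptprn (1.69 CPM), S100b (63.9 CPM), Slc1a5 (75.3 CPM), Slc26a3 (45.7 CPM), Slc4a4 (112 CPM), Smoc1 (29.6 CPM), Sncg (74.2 CPM), Thrsp (189 CPM) and Tm4sf4 (37.8 CPM). Sham replicate 1 stood below the other Sham libraries in Aqp5 (345 CPM) and Sftpc (9549.5 CPM). Sham replicate 3 stood above the other Sham libraries in Galnt10 (69.2 CPM), Map1lc3b (208 CPM), Mrc1 (413 CPM), Mro (0.944 CPM), Sema4d (24.5 CPM), Sema6b (15.9 CPM), Sod2 (134 CPM) and Tacr1 (3.12 CPM). Sham replicate 3 stood below the other Sham libraries in Cxcl12 (74.9 CPM), Itga8 (77.8 CPM), Oaz2 (184 CPM), Rgs4 (4.65 CPM) and Sdc3 (163 CPM). All 13 values set apart in Sham replicate 3 lay in the direction of the CLP libraries. Sham replicate 5 stood above the other Sham libraries in Slc6a2 (56.4 CPM) and Vcan (23.1 CPM). Sham replicate 5 stood below the other Sham libraries in Msr1 (9.12 CPM). CLP replicate 1 stood above the other CLP libraries in Adh7 (2.79 CPM) and Slc43a3 (585 CPM). CLP replicate 3 stood above the other CLP libraries in Aqp3 (20.6 CPM), Ebi3 (21 CPM), Odc1 (269 CPM) and Slc7a10 (5.44 CPM). CLP replicate 5 stood above the other CLP libraries in Adamts10 (84.4 CPM), Aoc1 (217 CPM), Ka11 (24.3 CPM) and Tacr1 (33 CPM). CLP replicate 5 stood below the other CLP libraries in Slc6a2 (73.9 CPM). CLP replicate 6 stood above the other CLP libraries in Sox7 (33.6 CPM). CLP replicate 6 stood below the other CLP libraries in Pde1b (1.25 CPM). For these genes the values without the library concerned are given in the results where they change a call or move it by over 1.5-fold. No gene's change differed between stimulated and unstimulated rats by the edgeR test of the difference at an adjusted p below 0.05.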

How the results depend on the processing

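Counts of called genes were recomputed with 1 choice changed at a time, except that the last setting below changes both the model and the libraries, and in none of the settings was a gene called in the opposite direction to the first analysis. Leaving out each of the 10 libraries in turn gave 2613 to 2944 genes called higher and 2669 to 3059 lower. RLE scaling gave 2987 and 2971, DESeq2 3083 and 3038, edgeR without robust estimation 2931 and 3039, no filter on low counts 2859 and 2995, a mean of at least 5 CPM 2549 and 2757, the 10 CLP and Sham libraries alone 2687 and 2690, and total counts 2341 and 3763. The filter at 5 CPM, which tests fewer genes, left 326 genes at least 2-fold higher and 375 at least 2-fold lower. With the number in the sample title as a replicate block 2393 genes were called higher and 2339 lower, and with the replicate block in only the 8 libraries that share numbers 1672 higher and 1432 lower. The numbers were not found to pair libraries: deviations of same-numbered CLP and Sham libraries correlated at 0.04, -0.00, -0.02 and -0.04 for numbers 1, 3, 4 and 5, and no library matched best with its own number. Among single genes named, Smoc1 reversed, to 0.11 without Sham replicate 1 (-3.16 at the lowest with another library left out); the cause was not tested. Across all named genes and settings 6205 results kept their direction and side of the threshold, 117 lost the call and 7 gained one. At these depths only 14794 of 19060 genes had enough counts for the main fit, and changes of the others are not described here. With no filter on low counts 19040 genes were tested, of which 587 were called at least 2-fold higher and 804 at least 2-fold lower.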

Other observations

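Of 40 ABC and organic solute transporters 4 were higher and 10 lower (35% called, against 40.3% of all tested genes). Abcc4, an exporter of cyclic nucleotides and prostaglandins, rose from 48.4 ± 5.62 to 80.3 ± 10.4 CPM (0.73 ± 0.09). Abcc6, the transporter that releases ATP, fell from 6.02 ± 1.44 to 1.57 ± 0.608 CPM (-1.93 ± 0.27). The glycocalyx and heparan sulphate list had 10 of 30 members lower and 3 higher (43.3% called). Hs6st1, which adds sulphate to heparan chains, rose by 0.40 ± 0.07. Among tryptophan and NAD genes 4 of 28 were higher and 5 lower (32.1% called, against 40.3% of all tested genes). Cd38, which consumes NAD, changed by -0.51 ± 0.08. Cholesterol synthesis and uptake genes had 5 of 25 higher and 2 lower (28% called), all by less than 1.5-fold. With total count scaling these counts were 2 and 2. Creatine genes had none of 8 higher and 3 lower (37.5% called), and without Sham replicate 1 2 were lower. F3, tissue factor, which starts blood clotting, rose from 87.8 ± 7.73 to 146 ± 9.32 CPM (0.74 ± 0.07), and Anxa1, an annexin that limits neutrophil entry, rose by 0.44 ± 0.10.

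The well-known lists, for comparison, had 23 of 42 cytokine and chemokine genes higher and 4 lower (median 0.81) and 27 of 31 acute phase and antibacterial genes higher and none lower (median 2.88). RNA of other tissues was also summed. Skeletal muscle genes reached 30.7 CPM in Sham replicate 1, against 13.7 to 17.1 CPM in Sham replicates 2 to 5 and 12.4 to 14.9 CPM in CLP. Cartilage genes lay between 10.8 and 20.8 CPM in Sham and 12.7 and 15.1 CPM in CLP. Liver genes ranged from 70.3 to 334 CPM in Sham and 98.3 to 301 CPM in CLP, and red cell genes from 2926 to 5692 CPM and 2796 to 5343 CPM. Genes of the squamous and airway surface summed to 116 to 162 CPM in Sham and 54.1 to 108 CPM in CLP, without overlap. Genes of lymphoid tissue summed to 431 to 520.0 CPM in Sham and 472 to 606 CPM in CLP, although 9 of the 16 tested were lower in CLP.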
